A study of Mus musculus with 6 samples.

Results

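The genes described here are 42 components of T cell receptor (TCR) proximal signalling, the steps between antigen binding at the cell surface and the first branches inside the T cell. They were chosen by gene symbol from known function, with earlier results of these data known. All 42 were found among the 28430 symbols of the count table. All 42 were also among the 15694 genes abundant enough to be tested.

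The RNA-Seq libraries were bulk ones, made from hepatic CD4 T cells that had been sorted from mice with metabolic dysfunction-associated steatohepatitis (MASH). The dKO group consisted of 3 libraries from Nr4a1 fl/fl Nr4a2 fl/fl Cd4-Cre mice, in which Cre recombinase under the Cd4 promoter deletes Nr4a1 and Nr4a2 throughout the T cell lineage. The WT group consisted of 3 libraries from mice without this deletion, and both groups received a choline-deficient, high-fat diet to induce MASH. The ages of the animals are not given in the sample labels, and the libraries are named dKO 1 to dKO 3 and WT 1 to WT 3 after their titles. Nr4a1 and Nr4a2 are nuclear orphan receptors that TCR signals induce, so the comparison asks how the signalling genes upstream of them stood when both had been deleted.

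When the TCR binds antigen, the kinase Lck phosphorylates the CD3 and zeta chains that carry the signal into the cell, and Zap70 docks there. Zap70 then phosphorylates the adaptors Lat and Lcp2 (SLP-76), which assemble phospholipase C gamma 1, Vav exchange factors and activators of Ras. From this assembly arise calcium release, Ras activation, actin remodelling and, through protein kinase C theta, Bcl10 and Malt1, NF-κB activation. A set of inhibitors restrains each step, among them Csk, which shuts Lck, phosphatases of the Ubash3 pair, and diacylglycerol kinases, which remove the second messenger diacylglycerol.

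The genotype labels were checked on the targeted genes. Gene levels are given as CPM, the reads of a gene per 1e+06 counted reads of its library, with library sizes adjusted by a trimmed mean (TMM). Nr4a2 had 478, 541 and 392 CPM in the libraries labelled dKO, against 160, 286 and 235 CPM in those labelled WT, and was called higher (log2 fold change 1.05 ± 0.21 SE, edgeR adjusted p = 0.0308). This call was lost without dKO 1, dKO 2 or WT 3 (adjusted p = 0.128, 0.0959 and 0.0789). Nr4a1 had 713, 1037 and 642 CPM in the libraries labelled dKO, against 330, 679 and 821 CPM in those labelled WT, and was not called (0.39 ± 0.37, adjusted p = 0.650). Nr4a3, the family member that was not targeted, had 514, 481 and 209 CPM in the libraries labelled dKO, against 153, 172 and 213 CPM in those labelled WT, and was not called (1.16 ± 0.37, adjusted p = 0.170). The levels of Nr4a1 and Nr4a2 go against the label dKO, although reads were summed over the whole gene and the deleted exons were not given in the sources used here, and reads outside a deleted part check nothing. Every direction below is therefore one between libraries labelled dKO and libraries labelled WT.

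The libraries labelled dKO held 5747744 to 8740564 counted reads and those labelled WT held 7124553 to 11078184. A T cell identity list outside the 42, of which 7 of 10 genes were in the table, summed to 3903 to 4747 CPM in libraries labelled dKO and 4221 to 5226 CPM in those labelled WT. Within it Cd4 had 395, 432 and 390 CPM in libraries labelled dKO, against 372, 409 and 350 CPM in those labelled WT. Thy1 did not overlap, with 1106, 1390 and 1064 CPM in libraries labelled dKO, against 1617, 1687 and 1773 CPM in those labelled WT. Summed levels of 4 other marker lists did not overlap between the labels. A list of 9 Treg markers summed to 4032 to 5218 CPM in libraries labelled dKO and 1381 to 2297 CPM in those labelled WT, and its defining gene Foxp3 was called higher (1.16 ± 0.18, adjusted p = 0.00954). The list of CD8 T cell genes, Cd8a and Cd8b1, summed to 296 to 338 CPM in libraries labelled dKO and 199 to 237 CPM in those labelled WT. Of 17 macrophage and monocyte markers, 5 (Adgre1, C1qa, C1qb, Vsig4 and Marco) were at 0 in all 6 libraries, and the list summed to 185 to 204 CPM in libraries labelled dKO and 118 to 133 CPM in those labelled WT, nearly all of it Ctss. Of the 4 genes of that list that were tested, 1 was called higher and 1 lower, and Fcer1g and Tyrobp were lower in every library labelled dKO (0.337 to 0.884 and 0 to 0.506 CPM) than in every library labelled WT (1.93 to 6.69 and 1.24 to 13.1 CPM). A list of 10 hepatocyte genes summed to 22.7 to 33.9 CPM in libraries labelled dKO and 7.87 to 16.7 CPM in those labelled WT, mostly Trf. Xist marks female cells and the Y-linked gene Ddx3y marks male ones. Xist had 1899, 796 and 1914 CPM in dKO 1 to 3 and 1656, 133 and 97.1 CPM in WT 1 to 3. Ddx3y had 16.4, 280 and 29.9 CPM in dKO 1 to 3 and 32.2, 254 and 341 CPM in WT 1 to 3. Libraries of the same label thus differed in these genes, and the labels were not balanced in them. Xist was high and Ddx3y low in dKO 1, dKO 3 and WT 1, with the reverse in WT 2 and WT 3, and dKO 2 held both. Sex was therefore partly confounded with the label, and Xist as a covariate below stands for sex. A list of 11 activation and dissociation genes overlapped between the groups (5836 to 10293 CPM in those labelled dKO and 5194 to 18989 CPM in those labelled WT). The part of these shifts in the results below was not tested except where a covariate is named. In bulk RNA fewer cells of a type and less RNA per cell cannot be told apart.

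Most TCR proximal components were not called, and the 7 that were called were effectors below the adaptors or inhibitors. These roles were assigned here and hold 10 members each. The division also rests on the threshold. Of 16 alternative fits, 5 called the adaptor Themis (edgeR adjusted p = 0.0627 in the main comparison) and 4 called the effector Malt1 (0.0495). Of the 42 genes, 3 were called higher in libraries labelled dKO (Ubash3b, Sla and Malt1) and 4 were called lower (Plcg1, Vav3, Sit1 and Sh2b3), at an adjusted p under 0.05. That is 16.7% of them, beside 3.31% of all genes tested. By direction, 7.14% were called higher beside 2.15% of all genes, and 9.52% were called lower beside 1.17%. Leaving out 1 library at a time gave 1 to 3 genes called higher and 0 to 4 called lower. Without dKO 1 edgeR called 1 higher and 0 lower, with 9 of the 42 at an unadjusted p under 0.05. With Xist as a covariate Malt1, Plcg1, Vav3, Sit1 and Sh2b3 each lost the call, and Ubash3b and Sla kept it. The members were also abundant and even between libraries. Of the 42, 40 had more reads behind them than the median tested gene (by mean CPM), and their coefficient of variation had a median of 6.80% among libraries labelled dKO and 9.41% among those labelled WT, against 12.7% and 13.8% over all genes tested. The part of abundance and spread in the share called was not tested. Since the members were chosen with earlier results of these data known, the share called is a description and not a test.

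Fold changes of the 42 genes ran between −0.70 (Vav3) and 0.83 (Ubash3b) on the log2 scale, with a median of −0.06 beside −0.01 over all genes tested. A total of 17 lay above 0, 25 lay below 0, and 30 were within 0.3 of 0. Of all 15694 genes tested, 7720 lay above 0, 7974 lay below 0, and 10356 were within 0.3 of 0. Libraries did not overlap between groups for 13 genes that were lower in those labelled dKO (31% beside 11.7% of all genes) and for 6 that were higher (14.3% beside 13.2%). At an unadjusted p under 0.05, 5 members were higher (11.9% beside 10.5%) and 10 lower (23.8% beside 8.71%). When the study's own thresholds were used, which combine that p with a fold over 1.5 or under 0.5, Ubash3b passed as higher (1 of 42, beside 4.54% of all genes) and 0 members passed as lower (beside 1.37%). Together the members held 0.869% to 0.915% of the reads in libraries labelled dKO and 0.865% to 0.958% in those labelled WT.

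**Figure D1:**
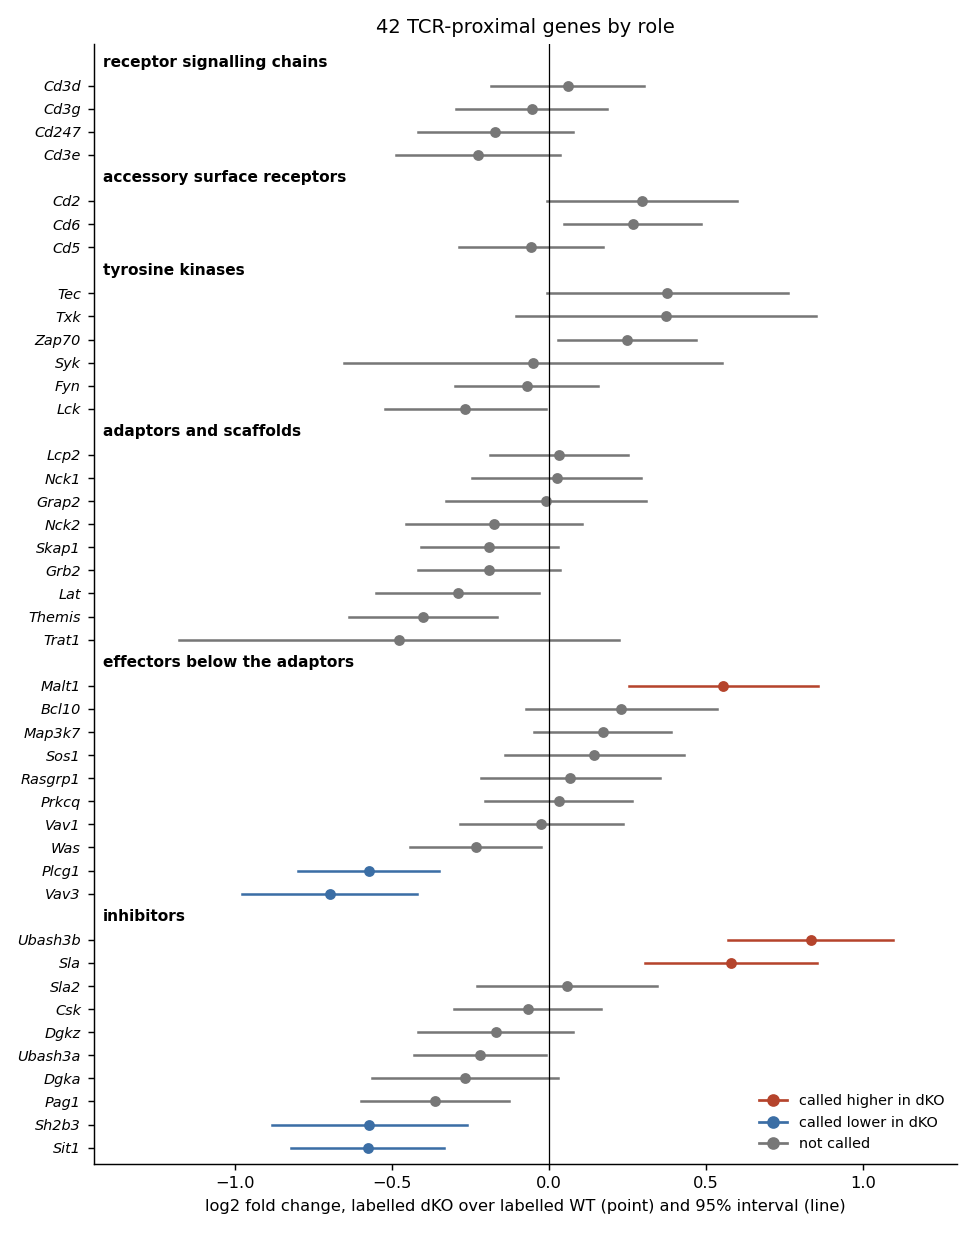
Log2 fold change of each of the 42 TCR proximal genes, libraries labelled dKO over libraries labelled WT (horizontal axis, point) with its 95% interval (line), grouped by role on the vertical axis. Red marks the 3 genes called higher and blue the 4 called lower. All 7 stand among the effectors and the inhibitors (10 genes each), and the receptor chains, kinases and adaptors hold none.

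Of the 4 receptor signalling chains and the 3 accessory receptors, 0 were called by edgeR, DESeq2 or limma. An unadjusted edgeR p under 0.05 was found for 1 (Cd6), beside 19.2% of all genes tested. The chains Cd3d, Cd3e, Cd3g and Cd247 (zeta) form the signalling part of the TCR complex and carry the phosphorylated motifs to which Zap70 binds. Cd3e had 282, 294 and 321 CPM in libraries labelled dKO, against 337, 399 and 313 CPM in those labelled WT (−0.23 ± 0.12, 95% interval −0.49 to 0.03, edgeR adjusted p = 0.330). Cd247 had 240, 234 and 249 CPM in libraries labelled dKO, against 284, 296 and 236 CPM in those labelled WT (−0.17 ± 0.11, adjusted p = 0.452). For both genes WT 3 lay among the libraries labelled dKO, so that the groups overlapped. Of the annotated exon bases of Cd247, 60.3% are also covered by other genes, mostly Pou2f1 on the opposite strand, and whether counting used strand was not given in the sources used here. The other chains differed by less, with log2 fold changes of 0.06 for Cd3d and −0.06 for Cd3g.

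Cd2, an adhesion receptor that binds CD48 in mice, had 527, 480 and 394 CPM in libraries labelled dKO, against 359, 438 and 344 CPM in those labelled WT (0.30 ± 0.14, adjusted p = 0.266), with the lowest library labelled dKO below WT 2. Cd6, a scavenger receptor family protein that docks signalling adaptors, had 236, 239 and 221 CPM in libraries labelled dKO, against 181, 196 and 202 CPM in those labelled WT (0.27 ± 0.10, adjusted p = 0.167). Its libraries did not overlap. Its relative Cd5, which dampens TCR signals, overlapped between the groups (−0.06 ± 0.11). None of these differences passed the test, and the interval for Cd6 ran between 0.05 and 0.49.

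Among the 6 tyrosine kinases, Lck and Zap70, which act in sequence, stood on opposite sides of 0 without either being called. Lck, which phosphorylates the CD3 chains, had 456, 480 and 508 CPM in libraries labelled dKO, against 613, 605 and 520 CPM in those labelled WT (−0.27 ± 0.12, adjusted p = 0.239). Zap70, which is recruited to those chains, had 204, 195 and 208 CPM in libraries labelled dKO, against 157, 180 and 174 CPM in those labelled WT (0.25 ± 0.10, adjusted p = 0.202). The groups did not overlap for either gene, but dKO 3 and WT 3 were close for Lck. Over 16 alternatives of scaling, filter, tool, covariate and left-out library, neither gene was called, and neither changed direction.

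Fyn, the other Src family kinase of T cells, overlapped between the groups (−0.07 ± 0.11). The Tec family kinases phosphorylate phospholipase C gamma 1. Tec had 18.04, 12.5 and 17.7 CPM in libraries labelled dKO, against 12.4, 12.3 and 12.5 CPM in those labelled WT (0.38 ± 0.18, adjusted p = 0.267), and dKO 2 lay at the level of the libraries labelled WT. Txk overlapped between groups, with WT 2 the lowest library (0.37 ± 0.21, adjusted p = 0.380). Syk, the relative of Zap70 used mainly by B cells, had the fewest reads of all members, 28 to 79 per library, and its interval was the widest among the kinases (−0.65 to 0.55). A difference in Syk within that interval was not detectable here, and its level varied by 36.8% (coefficient of variation) among libraries labelled dKO.

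Of the 9 adaptors and scaffolds, 0 were called by edgeR in the main comparison, and DESeq2 called 1 (Themis). An unadjusted edgeR p under 0.05 was found for 2 of the 9 (Themis and Lat), beside 19.2% of all genes tested. The log2 fold change was below 0 for 7 of the 9, with a median of −0.19. Their summed level was 1933 to 2084 CPM in libraries labelled dKO and 2219 to 2370 CPM in those labelled WT, given as a value with no test. Lat, the membrane scaffold on which the signalling complex is built, had 564, 653 and 633 CPM in libraries labelled dKO, against 780, 770 and 714 CPM in those labelled WT (−0.29 ± 0.12, adjusted p = 0.200). Its groups did not overlap. Themis, which binds Grb2 and is needed for T cell development in the thymus, had 148, 175 and 151 CPM in libraries labelled dKO, against 215, 194 and 217 CPM in those labelled WT (−0.40 ± 0.11, edgeR adjusted p = 0.0627). It was the uncalled member nearest to the threshold, and 5 of the 16 alternatives called it lower, DESeq2 among them (−0.41, adjusted p = 0.0407).

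Lcp2, the cytosolic adaptor that joins Lat through Grap2, had 309, 301 and 305 CPM in libraries labelled dKO, against 287, 313 and 295 CPM in those labelled WT (0.03 ± 0.10, adjusted p = 0.908). The libraries labelled dKO lay within the span of the libraries labelled WT, and the 95% interval was −0.19 to 0.25. Grb2, which links receptors to Sos1, and Skap1, which couples the TCR to integrins, had the same log2 fold change of −0.19 and no overlap. Trat1, a transmembrane adaptor that associates with the TCR complex, had the most negative point value of the adaptors and the widest interval of all members (−0.48 ± 0.29, 95% interval −1.18 to 0.22). Its level was 94.5, 111 and 74.5 CPM in libraries labelled dKO, against 169, 81.7 and 138 CPM in those labelled WT, where WT 2 fell between the libraries labelled dKO. Without WT 2 Trat1 was called lower (−0.72, adjusted p = 0.0445). Grap2, Nck1 and Nck2, SH2 and SH3 domain linkers, ran between −0.18 and 0.02 and overlapped between the groups.

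**Figure D2:**
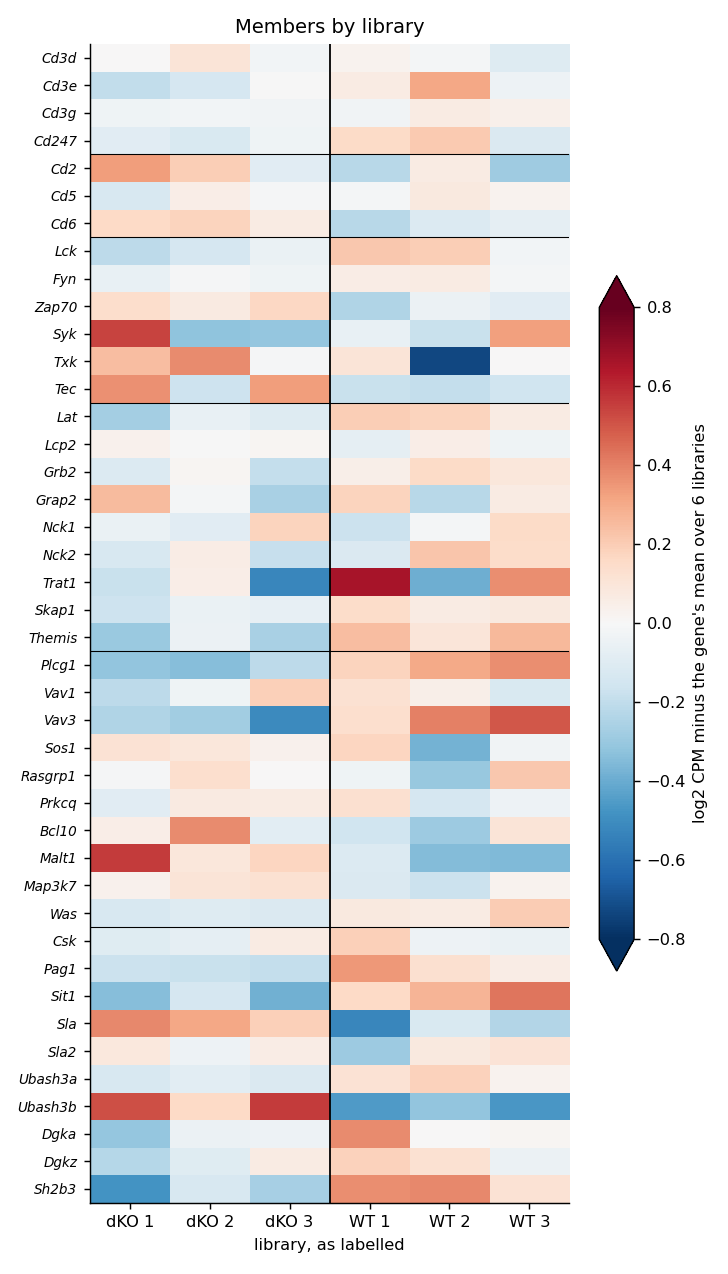
Level of each member in each library as log2 CPM minus the mean of that gene over the 6 libraries (colour, red above and blue below the mean), with libraries labelled dKO left of those labelled WT and black lines between the roles. Ubash3b and Sla are red in all 3 libraries labelled dKO, Plcg1, Vav3, Sit1 and Sh2b3 are blue in all 3, and Trat1, Txk and Syk vary more among libraries of 1 label.

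Among the 10 effectors below the adaptors, Malt1 was called higher and Plcg1 and Vav3 lower in libraries labelled dKO. Their summed level, given with no test, was 1313 to 1394 CPM in libraries labelled dKO and 1140 to 1286 CPM in those labelled WT. Malt1 had the highest level of the 10, with a mean of 425 CPM in libraries labelled dKO and 289 CPM in those labelled WT. The sum therefore does not stand for the effectors as a group, whose median log2 fold change was 0.05, with 6 above 0 and 4 below. Plcg1 encodes phospholipase C gamma 1, which makes the messengers inositol trisphosphate and diacylglycerol. It had 48.6, 47.8 and 52.3 CPM in libraries labelled dKO, against 68.5, 74.6 and 78.3 CPM in those labelled WT. All 3 libraries labelled dKO were below all 3 libraries labelled WT, and the fold was 0.672 (−0.57 ± 0.10 on the log2 scale, edgeR adjusted p = 0.0114). Of 16 alternatives 13 called it lower. The call was lost without dKO 1 or dKO 2 (adjusted p = 0.0706 and 0.0654) and with Xist as a covariate (adjusted p = 0.0584). Of its exon bases, 6.68% are shared with genes on the opposite strand, Zhx3 and Gm27206.

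Vav3, an exchange factor of actin remodelling, had 35.4, 34.4 and 29.3 CPM in libraries labelled dKO, against 45.8, 55.2 and 58.9 CPM in those labelled WT. The groups did not overlap, and this was the most negative log2 fold change of the members (−0.70 ± 0.13, adjusted p = 0.0124, 11 of 16 alternatives called). Leaving out dKO 1, dKO 2, dKO 3 or WT 3 gave adjusted p = 0.0511, 0.0527, 0.0509 and 0.0502, and Xist as a covariate gave 0.0841, each above the threshold with the same direction. Vav1, the main Vav protein of T cells, overlapped between the groups (−0.02 ± 0.12, adjusted p = 0.941).

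Malt1, the paracaspase that acts with Bcl10 to activate NF-κB, had 512, 371 and 392 CPM in libraries labelled dKO, against 322, 273 and 272 CPM in those labelled WT. No library labelled dKO reached down to a library labelled WT (0.55 ± 0.14, fold 1.47, adjusted p = 0.0495). The call was the least stable of the 7, since 4 of 16 alternatives kept it. Without dKO 1, the library with the highest level, the log2 fold change was 0.40 (adjusted p = 0.225), and without dKO 2, dKO 3, WT 2 or WT 3 the adjusted p was 0.0842, 0.0708, 0.118 and 0.144. DESeq2 was among the alternatives that kept it (0.55, DESeq2 adjusted p = 0.00953). Within edgeR, relative log expression scaling in place of TMM was enough to lose it (edgeR adjusted p = 0.0506). The call was also lost with Xist as a covariate (0.37, adjusted p = 0.243) or with the activation genes as one (0.46, adjusted p = 0.0505). Its partner Bcl10 overlapped between the groups (0.23 ± 0.14, adjusted p = 0.406), and Map3k7 (TAK1), a kinase further along the same branch, did not overlap but was not called (0.17 ± 0.10, adjusted p = 0.388).

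The Ras activator Rasgrp1 had 254, 280 and 256 CPM in libraries labelled dKO, against 249, 207 and 297 CPM in those labelled WT (0.07 ± 0.13, adjusted p = 0.836). Prkcq, protein kinase C theta, had 141, 158 and 157 CPM in libraries labelled dKO, against 164, 137 and 146 CPM in those labelled WT (0.03 ± 0.11, adjusted p = 0.917). Both proteins respond to diacylglycerol, and for both genes the groups overlapped. Was, the Wiskott-Aldrich protein of actin remodelling, had 112, 114 and 114 CPM in libraries labelled dKO, against 130, 129 and 141 CPM in those labelled WT (−0.23 ± 0.10, adjusted p = 0.203), without overlap. Sos1, the other Ras activator, overlapped (0.14 ± 0.13).

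**Figure D3:**
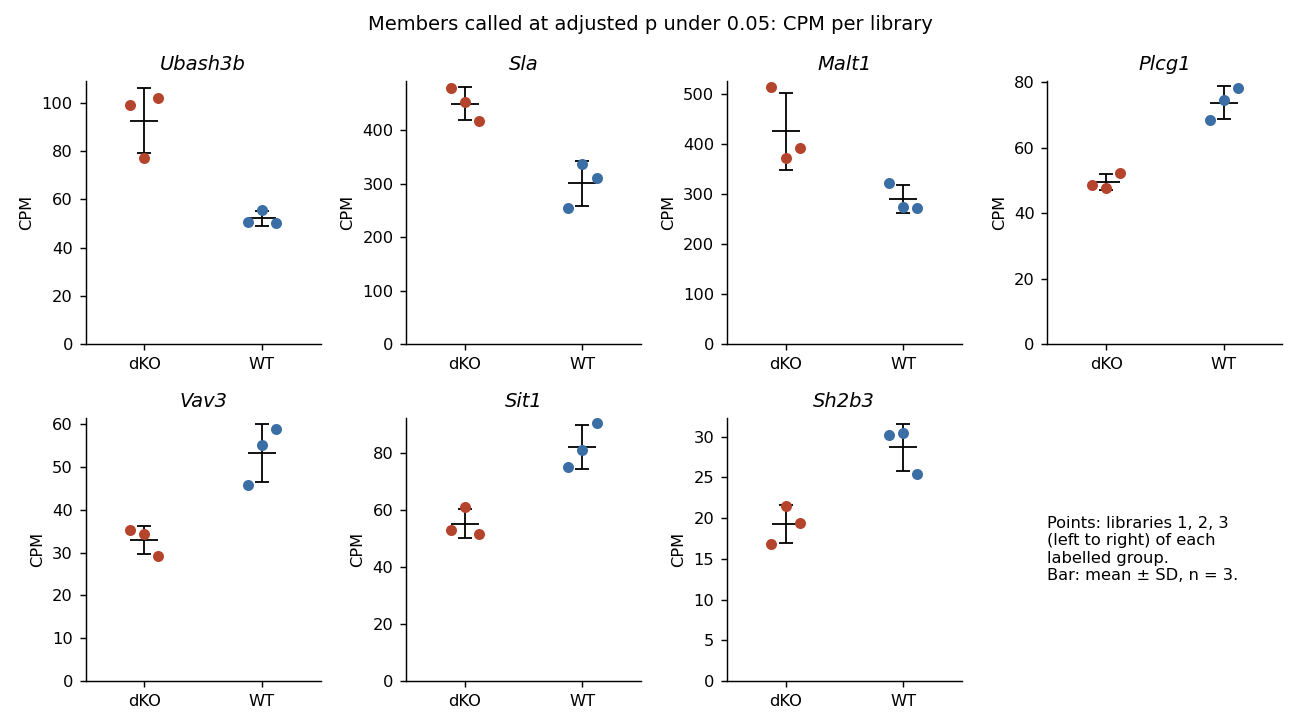
Normalised CPM (vertical axes, each from 0) of the 7 called members in the 3 libraries labelled dKO (red, left) and the 3 labelled WT (blue, right), with the mean and SD as black bars (n = 3 each). No gene overlaps between groups. Ubash3b, Sla and Malt1 are higher in libraries labelled dKO, and Plcg1, Vav3, Sit1 and Sh2b3 are lower.

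The inhibitors split between the directions, with 2 of 10 called higher (Ubash3b and Sla) and 2 called lower (Sit1 and Sh2b3) in libraries labelled dKO. Of all genes tested, 2.15% were called higher and 1.17% lower. Ubash3b encodes Sts-1, a phosphatase that acts on Zap70. It had 99.0, 77.1 and 102 CPM in libraries labelled dKO, against 50.5, 55.5 and 50.2 CPM in those labelled WT. This was the most positive log2 fold change of the members (0.83 ± 0.12, fold 1.78, adjusted p = 0.00376), and the one call that held in all 16 alternatives, with adjusted p up to 0.0284. Its relative Ubash3a, which has little phosphatase activity, had 86.5, 88.9 and 86.9 CPM in libraries labelled dKO, against 102, 107 and 96.3 CPM in those labelled WT (−0.22 ± 0.10, adjusted p = 0.232). The groups did not overlap for either gene, in opposite directions, and Ubash3a was not called.

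Sla encodes the Src-like adaptor SLAP, which promotes degradation of the TCR zeta chain. It had 478, 453 and 417 CPM in libraries labelled dKO, against 255, 336 and 311 CPM in those labelled WT (0.58 ± 0.13, fold 1.49, edgeR adjusted p = 0.0268), without overlap. Of 16 alternatives 13 called it, and the call was lost without dKO 1, dKO 2 or WT 3 (adjusted p = 0.143, 0.112 and 0.0721). Sla2, its relative, overlapped between the groups (0.06 ± 0.13), and 23.6% of its exon bases are shared with Rab5if on the opposite strand.

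Sit1, a transmembrane adaptor that dampens TCR signals, had 52.9, 60.9 and 51.4 CPM in libraries labelled dKO, against 75.0, 80.8 and 90.2 CPM in those labelled WT (−0.58 ± 0.11, fold 0.670, adjusted p = 0.0168). All libraries labelled dKO were below all libraries labelled WT. The call held in 12 of 16 alternatives and was lost without dKO 1, dKO 3 or WT 3 (adjusted p = 0.0999, 0.0610 and 0.0679) and with Xist as a covariate (0.0963). Sh2b3 encodes Lnk, an adaptor best known for restraining cytokine receptor signals in blood progenitors. It had 16.8, 21.4 and 19.5 CPM in libraries labelled dKO, against 30.2, 30.5 and 25.4 CPM in those labelled WT (−0.57 ± 0.14, adjusted p = 0.0492). This call was at the threshold, and 6 of 16 alternatives kept it. It was lost in all 6 fits with 1 library left out (adjusted p from 0.0579 without WT 3 to 0.202 without dKO 1), while the log2 fold change stayed between −0.66 and −0.49. It was also lost with limma-voom (adjusted p = 0.0628), limma on log2 of CPM (0.0585), a replicate block in edgeR (0.0676) and Xist as a covariate (0.0817).

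Csk inhibits Lck and is held at the membrane by the adaptor that Pag1 encodes. Pag1 had 198, 197 and 196 CPM in libraries labelled dKO, against 284, 244 and 233 CPM in those labelled WT (−0.36 ± 0.11, adjusted p = 0.0870), without overlap and with nearly equal libraries labelled dKO. It was called lower in 3 of 16 alternatives, among them Xist as a covariate (−0.50, edgeR adjusted p = 0.0405). Csk itself overlapped (−0.07 ± 0.11). The diacylglycerol kinases Dgka and Dgkz had log2 fold changes of −0.27 and −0.17, and neither was called (adjusted p = 0.312 and 0.457).

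**Figure D4:**
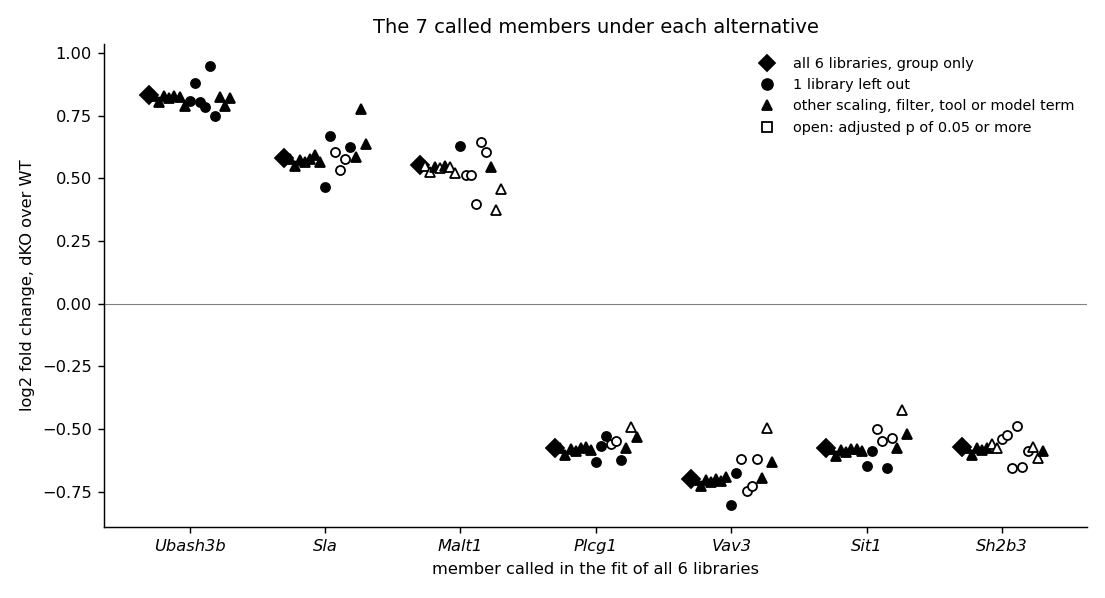
Log2 fold change of the 7 called members, libraries labelled dKO over labelled WT (vertical axis), in the fit of all 6 libraries (diamond), with 1 library left out (circles) and under another scaling, filter, tool or model term (triangles). Filled symbols have an adjusted p under 0.05 and open symbols do not. All points of a gene lie on 1 side of 0, all those of Ubash3b are filled, and those of Malt1 and Sh2b3 are mostly open.

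Related members were next compared within a library, as the ratio of their reads, a quantity that no scaling of library size can move. Of 10 pairs, 5 had ratios that did not overlap between the groups, beside 25% of all tested genes taken singly. A share for ratios of other gene pairs was not computed. The pairs of Ubash3b, Sla and Vav3 each hold a member called above, so their ratios partly restate those calls. The reads of Ubash3b over Ubash3a were 1.14, 0.867 and 1.17 in libraries labelled dKO, against 0.494, 0.519 and 0.521 in those labelled WT. The lowest ratio among libraries labelled dKO was above the highest among those labelled WT. The ratio of Sla to Sla2 was 13.7, 14.2 and 12.2 in libraries labelled dKO, against 9.51, 9.72 and 8.76 in those labelled WT. The ratio of Cd6 to Cd5 was 0.780, 0.698 and 0.674 in libraries labelled dKO, against 0.555, 0.562 and 0.598 in those labelled WT.

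Vav3 over Vav1 was 0.419, 0.362 and 0.264 in libraries labelled dKO, against 0.433, 0.548 and 0.658 in those labelled WT, with dKO 1 and WT 1 close together. Lck over Fyn was 1.11, 1.12 and 1.21 in libraries labelled dKO, against 1.37, 1.34 and 1.22 in those labelled WT, with dKO 3 and WT 3 nearly equal. Each of these 5 pairs had a two-sided exact permutation p of 0.1, the smallest that 3 libraries against 3 allow, and an adjusted p of 0.2 over the 10 pairs. The ratios of Zap70 to Syk, Txk to Tec, Grap2 to Grb2, Nck2 to Nck1 and Dgka to Dgkz overlapped. Reads were not divided by gene length, so a ratio compares groups and not the molar amounts of the relatives.

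**Figure D5:**
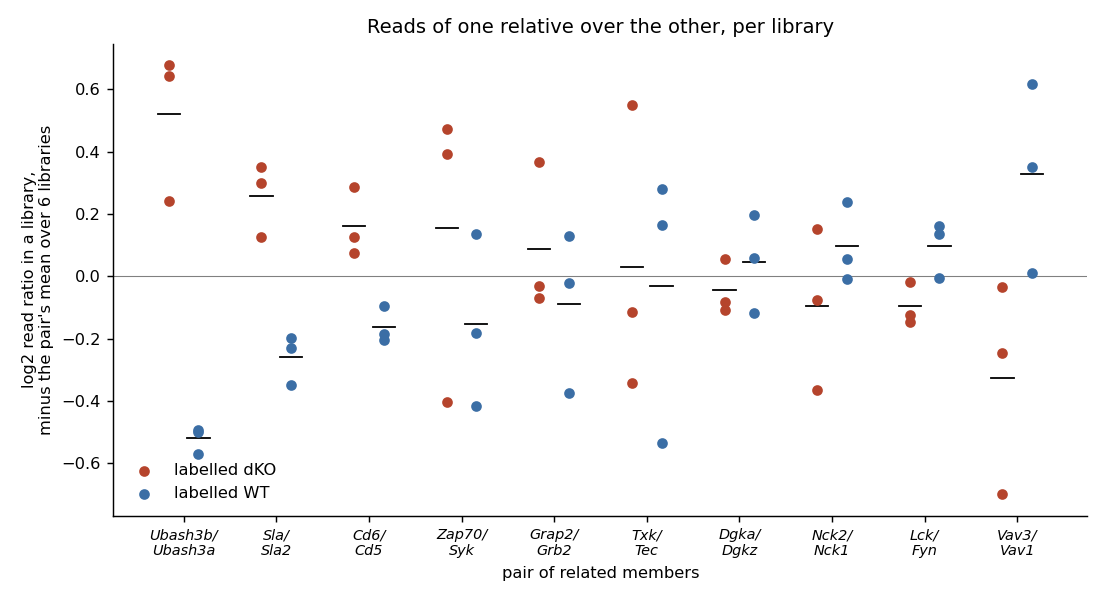
Log2 ratio of the reads of related members in each library, minus the mean of that pair over the 6 libraries (vertical axis), for 10 pairs (horizontal axis, ordered by the difference between groups), with libraries labelled dKO in red at the left of each pair, those labelled WT in blue at the right, and black bars for the means of 3. The first 3 pairs (Ubash3b/Ubash3a, Sla/Sla2 and Cd6/Cd5) lie higher in libraries labelled dKO without overlap, and the last pairs, Lck/Fyn and Vav3/Vav1, lie lower without overlap.

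The promoters of the members were searched for motifs of factors tied to this pathway: the NBRE (AAAGGTCA), the site that Nr4a receptors bind as monomers, the AP-1 site (TGANTCA) and the NFAT core (GGAAAA). Each was searched on both strands in the 250 bases before each start site in the RefSeq table of build GRCm38.p6. No matches of different motifs overlapped. Of the 42 members, 36 had an entry, among them 5 of the 7 called. The 4 windows below are shown because they belong to the 2 effectors called lower, to the member with the most positive fold change, and to the 1 member with an NBRE. Where a gene had several windows, the one shown was picked for its matches: the other Ubash3b window and both other Vav3 windows had 0 matches. Of the other Zap70 windows, chr1:36761548-36761797 held an NFAT core on the other strand and chr1:36764265-36764514 had 0 matches. Capitals mark motif matches, and each is written 5′ to 3′ on the strand of its gene.
Ubash3b, chr9:41158063-41158312, - strand, the NFAT core on the other strand at 2 places: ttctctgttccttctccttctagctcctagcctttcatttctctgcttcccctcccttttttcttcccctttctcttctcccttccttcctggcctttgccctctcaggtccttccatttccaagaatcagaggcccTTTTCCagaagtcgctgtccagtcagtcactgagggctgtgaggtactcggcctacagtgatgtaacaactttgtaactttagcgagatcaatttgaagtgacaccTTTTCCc
Plcg1, chr2:160731060-160731309, + strand, no match: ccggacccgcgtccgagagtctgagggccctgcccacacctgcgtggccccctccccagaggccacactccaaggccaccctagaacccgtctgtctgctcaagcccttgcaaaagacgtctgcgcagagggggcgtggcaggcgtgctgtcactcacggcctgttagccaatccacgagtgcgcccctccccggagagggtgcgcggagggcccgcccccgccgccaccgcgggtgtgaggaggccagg
Vav3, chr3:109573757-109574006, + strand, the NFAT core and an AP-1 site: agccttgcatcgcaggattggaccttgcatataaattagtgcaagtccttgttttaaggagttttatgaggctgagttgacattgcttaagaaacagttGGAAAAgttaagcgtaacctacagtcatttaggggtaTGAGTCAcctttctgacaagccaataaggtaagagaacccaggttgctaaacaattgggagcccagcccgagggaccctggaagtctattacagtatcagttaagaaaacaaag
Zap70, chr1:36778734-36778983, + strand, the NBRE on the other strand: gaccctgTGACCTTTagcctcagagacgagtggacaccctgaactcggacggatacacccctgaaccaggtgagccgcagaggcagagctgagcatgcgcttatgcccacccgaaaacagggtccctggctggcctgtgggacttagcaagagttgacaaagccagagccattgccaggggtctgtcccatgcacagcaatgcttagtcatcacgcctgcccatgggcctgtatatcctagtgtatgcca

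An NBRE was present in 1.34% of all 32851 windows of this length and in 1 of the 52 windows of the members, at Zap70, where its first base lies 243 bases before one of several annotated starts. None of the 5 called members with an entry held it. The AP-1 site was in 6.75% of all windows and in 1.92% of member windows, again 1 window, that of an internal start of Vav3. The NFAT core was in 20.4% of all windows and in 19.2% of member windows, at 10 genes, of which Ubash3b and Vav3 were called, in opposite directions. A match is one of letters only, in a short window.

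Other genes of the pathway were taken from a list of 65 TCR signalling symbols, also chosen with earlier results of these data known. Gads, Sts1 and Fyb1 were not found, being other names of the members Grap2 and Ubash3b and of the listed gene Fyb. The symbols found all lie outside the 42. Of the 62 found and tested, 1 was called higher and 2 were called lower (4.84% beside 3.31% of all genes). Their median log2 fold change was 0.03, with 38 above 0 beside 7720 of all 15694 genes tested. Vav2, a more widely expressed Vav exchange factor, had 17.7, 16.7 and 17.9 CPM in libraries labelled dKO, against 5.94, 10.04 and 7.67 CPM in those labelled WT (1.14 ± 0.20, adjusted p = 0.00951). The call was lost without dKO 1 (adjusted p = 0.0533). The Vav family thus held 1 gene called higher (Vav2), 1 called lower (Vav3) and 1 not called (Vav1).

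Tespa1, needed for thymocyte selection and linked to calcium signals, had 70.0, 82.3 and 72.2 CPM in libraries labelled dKO, against 156, 138 and 121 CPM in those labelled WT (−0.89 ± 0.12, adjusted p = 0.00211). It was called in all 16 alternatives. Lax1, a transmembrane adaptor that dampens TCR signals, had 44.7, 59.6 and 70.5 CPM in libraries labelled dKO, against 91.0, 97.6 and 88.8 CPM in those labelled WT (−0.66 ± 0.14, adjusted p = 0.0295). Its call was lost without dKO 1, dKO 2, WT 2 or WT 3 (adjusted p from 0.0694 to 0.113) and with Xist as a covariate (0.0787). Neither gene overlapped between the groups.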

How the data were processed

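For RNA from sorted hepatic CD4 T cells, NEBNext Ultra II FS libraries had been read single-end on a NovaSeq instrument, with 3 independent biological replicates per genotype according to the study's methods. The submitters' processing notes name cutadapt and Bowtie2, and the genome is named both mm10 and GRCm39. Annotation, counting tool and strand use were not given in the sources used here. Raw read counts for each gene symbol, as the authors deposited them, were tested. The authors' normalised table is called TPM but holds CPM: 170580 of 170580 values gave back the deposited count within 0.01 reads, so no length term was present. The unit assumed when the design was written was therefore replaced. A table of mapping statistics was not used.

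A low-count filter (filterByExpr, at least 10 reads and 15 in total) left 15694 of 28430 genes. The groups were compared as labelled with edgeR 4.0.16 in R 4.3.3 (TMM scaling, robust quasi-likelihood F-test, two-sided), with Benjamini-Hochberg adjustment over all genes tested and a threshold of 0.05. The SE is the size of the log2 fold change over the square root of F, and intervals are 95%. Levels and SE refer to 3 libraries per group. The p-values test the difference between groups against the spread between libraries of a group, which edgeR moderates with information from all genes. The SE is on that same moderated scale. No 2 libraries of a group agreed within counting error (chi-square per degree of freedom 6.37 to 36.9). The procedure was tested on simulated data. Alternatives were DESeq2 1.42.0, limma 3.58.1 (voom, and log2 of CPM with a pseudocount of 1), other scaling and filters, a replicate term, leaving out each library, and, added after the data were seen, Xist or activation genes as a covariate and the paralog ratios without each library. Genes given library by library are the called members, the 10 uncalled members with the smallest p, a core chain from Cd3e to Prkcq, and the called genes of the wider pathway list. Trat1 was added after its values were seen. Members and lists were chosen with earlier results of these data known. Exon overlaps come from GENCODE vM21 and promoters from RefSeq (GRCm38.p6), used for sequences and overlaps alone.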

Additional observations from a re-analysis of the deposited data

How the results depend on the processing

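Of the 42 members, 30 kept their direction in every alternative run, and the 7 called members were among them. The count of members called lower (4) was 1 with Xist as a covariate and 0 to 4 with 1 library left out. The 1 called with Xist was Pag1 (−0.50, edgeR adjusted p = 0.0405), which the main comparison did not call. Plcg1, Vav3, Sit1 and Sh2b3 each lost the call there (adjusted p = 0.0584, 0.0841, 0.0963 and 0.0817). The count called higher (3) was 1 to 3 with 1 library left out. Of the wider pathway list, 4 genes were called higher without a filter, 2 with DESeq2 and 2 with the activation covariate (1 in the main comparison), and leaving out 1 library gave 0 to 2 called higher and 1 to 3 called lower. Over all genes, 756 were called higher and 560 lower without a filter (337 and 183 with it), and leaving out 1 library gave 90 to 447 higher and 42 to 378 lower. Nr4a1 was called higher with Xist (1.23, adjusted p = 6.68e-04) or the activation genes (0.76, adjusted p = 0.0416) as a covariate. The log2 fold change of Nr4a2 was 0.85 to 1.25 with 1 library left out. The causes were not tested.

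The following uncalled members changed sign. With Xist as a covariate the log2 fold changes were −0.066 for Prkcq, 7.4e-04 for Cd5, 0.0018 for Syk, 0.029 for Nck2 and −0.027 for Sos1. With upper-quartile scaling they were −0.0012 for Prkcq and −0.0046 for Nck1. With 1 library left out, ranges were −0.0035 to 0.067 for Lcp2, −0.054 to 0.21 for Rasgrp1, −0.029 to 0.10 for Prkcq, −0.37 to 0.13 for Syk, −0.15 to 0.10 for Grap2, −0.076 to 0.11 for Nck1, −0.14 to 0.066 for Vav1, −0.13 to 0.0088 for Csk and −0.064 to 0.13 for Sla2.

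Over all genes, same-numbered libraries did not deviate together (correlations 0.045, 0.021 and −0.079), so the numbers were not taken as pairs. The activation and dissociation list, however, rose from library 1 to library 3 under both labels. It summed to 5836, 9482 and 10293 CPM in dKO 1 to 3 and to 5194, 13800 and 18989 CPM in WT 1 to 3. With a replicate block, 3 members were called higher and 3 lower, Sh2b3 being lost (adjusted p = 0.0676), and 307 and 184 of all genes were called. Syk rests on 28 to 79 reads per library, which limits its precision.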
